A study of Mus musculus with 7 samples.

Results

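The genes described here are 10 symbols of the prostaglandin pathway, taken as a list from a table of 24964 gene symbols: Ptgs1, Ptgs2, Ptges, Ptgis, Ptgds, Ptger2, Ptger3, Ptger4, Ptgfr and Hpgd. The list was chosen with earlier results of these data known. All 10 were found in the table, and all 10 had a mean of at least 1 FPKM (fragments scaled to the length of the gene and to the total of the library), the limit for testing. Expression was measured by RNA sequencing of whole uterus from 12-week-old mice in diestrus, a phase of the estrous cycle. The controls were 3 libraries of genotype Pgrcre/+ with the replicate numbers 1, 2 and 4, and the other group was 4 libraries of genotype Pgrcre/+Foxl2LsL/+ with the numbers 1 to 4, called Foxl2LsL below. Every library thus came from mice with a Cre recombinase allele at the Pgr locus, whose gene (the progesterone receptor) is used by uterine epithelium, stroma and muscle, and no library without Cre was included. The title of the series speaks of overexpression of FOXL2, a forkhead transcription factor. The labels do not say whether the libraries came from separate animals, so the p-values measure the spread between these libraries only.

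Prostaglandins are short-lived lipid signals made from arachidonic acid, which phospholipases release from membranes. The cyclooxygenases, encoded by Ptgs1 and Ptgs2, make the common precursor PGH2, terminal synthases turn it into PGE2, PGD2, prostacyclin, PGF2-alpha or thromboxane, and each product acts on its own G-protein-coupled receptors. Hpgd encodes the dehydrogenase that starts the breakdown of PGE2 and PGF2-alpha. In the uterus the pathway is known for its parts in implantation, decidualization, blood flow and contraction of the muscle wall.

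Of the 10 genes, 5 passed a limma test at a Benjamini-Hochberg adjusted p of 0.05: Ptgs2, Ptgds and Ptger3 fell in the Foxl2LsL libraries, and Ptger4 and Hpgd rose. Over all 13334 tested genes 40.6% passed, 16.7% higher and 23.9% lower, so the share among the prostaglandin genes was close to that background. The median log2 fold change was -0.03 over the 10 genes and -0.05 over all tested genes. The groups did not overlap in the same 5 genes, beside 47.6% of all tested genes (19.7% with Foxl2LsL higher and 27.9% with it lower). The plot of FPKM by library shows each gene in turn. Every log2 fold change is the Foxl2LsL minus the control mean of log2(FPKM + 1), a scale on which changes of genes with low values look smaller.

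**Figure D1:**
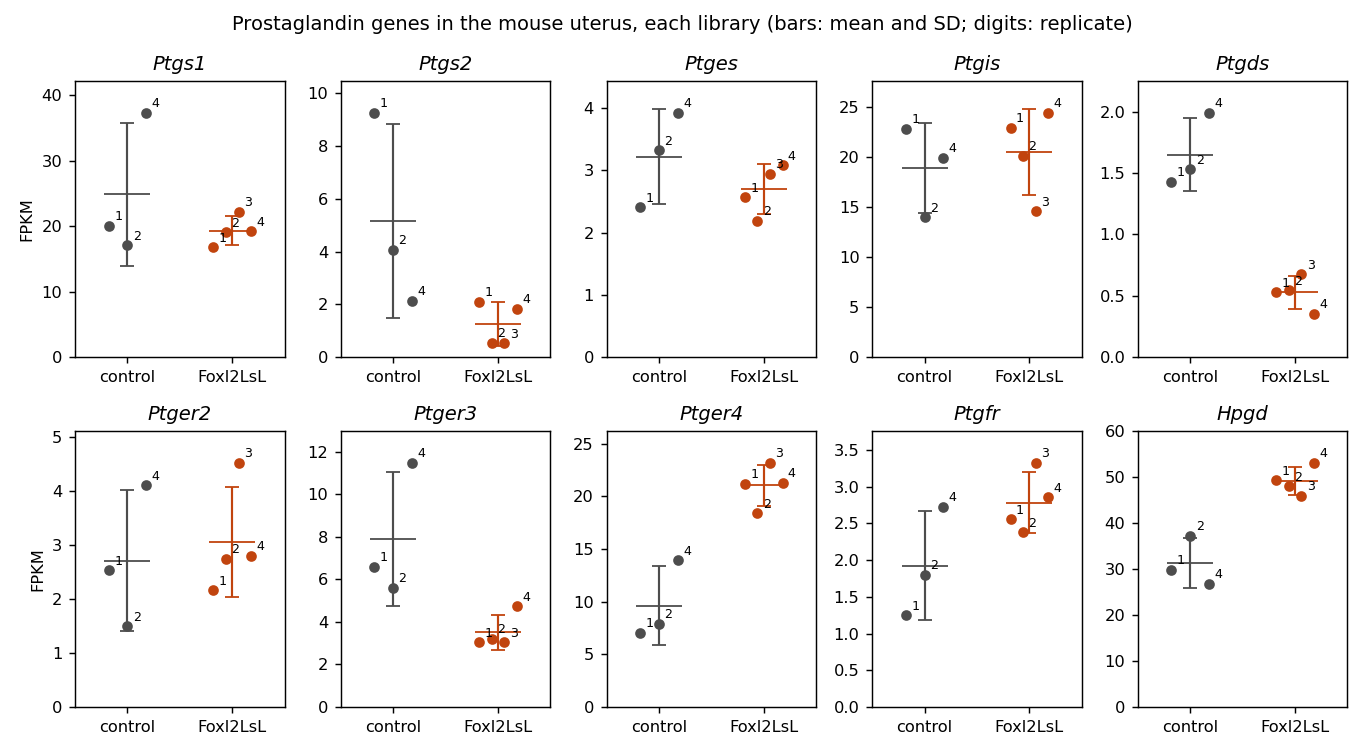
FPKM of the 10 prostaglandin genes (vertical axes, each from 0) in the 3 control and 4 Foxl2LsL libraries; points are libraries with their replicate number, and bars give the mean and SD. Ptger4 and Hpgd lie higher in every Foxl2LsL library than in any control, Ptgds and Ptger3 lie lower, and Ptgs2 of control 4 and Foxl2LsL 1 nearly touch.

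The promoter windows of the genes that moved in opposite directions are shown first, since the values below set Ptgs2 against Hpgd and Ptger3 against Ptger4. They run from 250 bases before to 50 after the RefSeq start on GRCm38.p6, 5′ to 3′ on the strand of the gene, and 9 of the 10 genes had such a window, all but Ptgis. The windows were searched for 6 short motifs, spelled out below with their shares: the TATA box on the strand of the gene only, and the others on both strands. Capitals mark the matches. The window of Ptgs2 is chr1:150099781-150100080 (plus strand), that of Hpgd chr8:56294302-56294601 (plus), that of Ptger3 chr3:157566626-157566925 (plus) and that of Ptger4 chr15:5244138-5244437 (minus).
Ptgs2: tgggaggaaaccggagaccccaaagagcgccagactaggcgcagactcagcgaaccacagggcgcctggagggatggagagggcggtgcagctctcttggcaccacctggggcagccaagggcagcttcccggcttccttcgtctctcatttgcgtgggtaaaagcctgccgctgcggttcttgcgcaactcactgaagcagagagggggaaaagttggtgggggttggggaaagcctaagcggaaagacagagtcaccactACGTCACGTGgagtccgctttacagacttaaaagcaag
Hpgd: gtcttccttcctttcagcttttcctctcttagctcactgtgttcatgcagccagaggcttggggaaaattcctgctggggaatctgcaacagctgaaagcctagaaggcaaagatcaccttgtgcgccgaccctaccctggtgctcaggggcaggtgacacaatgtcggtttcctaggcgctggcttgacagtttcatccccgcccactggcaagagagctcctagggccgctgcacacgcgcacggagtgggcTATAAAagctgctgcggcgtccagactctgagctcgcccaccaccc
Ptger3: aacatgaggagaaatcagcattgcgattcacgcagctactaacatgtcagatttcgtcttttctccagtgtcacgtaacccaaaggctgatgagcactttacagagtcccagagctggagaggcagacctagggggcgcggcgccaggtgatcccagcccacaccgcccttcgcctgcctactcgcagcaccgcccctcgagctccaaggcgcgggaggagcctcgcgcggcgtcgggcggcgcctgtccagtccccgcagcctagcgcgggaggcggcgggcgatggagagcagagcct
Ptger4: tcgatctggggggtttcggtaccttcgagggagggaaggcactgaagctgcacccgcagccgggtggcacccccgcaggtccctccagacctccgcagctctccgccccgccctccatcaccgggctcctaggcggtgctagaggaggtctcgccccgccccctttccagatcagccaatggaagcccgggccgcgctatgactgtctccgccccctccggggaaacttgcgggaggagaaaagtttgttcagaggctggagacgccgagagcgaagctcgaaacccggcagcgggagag
In the Ptgs2 window the core of the cyclic AMP response element, ACGTCA, lay at bases 12 to 17 after the start. It overlapped an E-box, spelled CACGTG, at bases 16 to 21. These motifs occurred in 7.51% and 7.15% of the 32851 windows of all genes. The Hpgd window held the letters of a TATA box, TATAAA, at 4 to 9 bases after its RefSeq start. Of all windows 8.32% held these letters somewhere. That start and the match lie before the GENCODE start of Hpgd given below, 56294585. The starts of RefSeq and GENCODE can differ, and the window of Ptges lies inside the GENCODE span of its gene. The windows of Ptger3 and Ptger4 held none of the 6 motifs. The forkhead motif GTAAACA, found in 3.65% of all windows, was in none of the 9. Of the other genes, Ptger2, Ptges and Ptgs1 had the half-site of the progesterone receptor, AGAACA, which 19% of all windows held. Ptgfr had the half-site of nuclear receptors, AGGTCA, which 16.3% of all windows held. The GC content was 64% for Ptger3 and 67% for Ptger4, against a median of 52.7% over all windows. A match describes letters only, and its absence in a window this short says nothing of a factor.

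Before the genes are taken in turn, the libraries need a word. Foxl2 itself was at 11.1 to 19.3 FPKM in controls and 12.7 to 17.2 FPKM in Foxl2LsL libraries, a log2 fold change of 0.06 (SE 0.18; limma, adjusted p 0.818), so the table shows no rise of the gene that the genotype is named for and every direction below holds for the labels as they stand. The libraries had 47800000 to 67300000 fragments in the denominator of FPKM, rounded. On the first principal component, with 67% of the variance, controls lay at -41.9 to -37.3 and Foxl2LsL libraries at 27.8 to 31.7. The controls were not alike: control 4 stood apart on the second component, with 16.7% of the variance (-31.9, against 8.5 and 25.2). Control 2 had 291 FPKM of Ovgp1, a secretory gene of the oviduct, against 1.65 to 19.7 FPKM in the other 6 libraries. Of the other tested genes of the ovary and oviduct list, Pax8 was at 23.1 FPKM in control 2 and 16.2 to 40.2 FPKM in the others. Inha was at 6.48 FPKM in control 2 and 4.58 to 9.22 FPKM in the others. Pax8 was higher past the threshold in Foxl2LsL libraries (limma, adjusted p 0.0131). The source of Ovgp1 in control 2 was not tested. Adipose markers (Adipoq, Plin1, Cfd, Fabp4 and Lep) summed to 0.46 to 97.4 FPKM in controls and 2.67 to 253 FPKM in Foxl2LsL libraries, with Adipoq and Lep at 0 in control 1. Epithelial, stromal and muscle markers of the uterus were well expressed in all 7 libraries, but not evenly. Of 5 stromal markers (Pdgfra, Dcn, Lum, Col1a1 and Hoxa11) 1 rose and 1 fell past the threshold, beside 16.7% and 23.9% of all tested genes. Dcn rose from a mean of 411 to 978 FPKM, and Hoxa11 fell from 51.9 to 12 FPKM (limma, adjusted p 0.000307 and 0.00286). Pdgfra was at 38.3 FPKM in control 4 and 9.39 to 16.8 FPKM in the other libraries. In whole tissue, fewer cells of a type and less RNA per cell cannot be told apart.

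The cyclooxygenases came first in the pathway and differed from each other. Ptgs1 (chromosome 2, 36230426 to 36252272, plus strand, GRCm38), the constitutive form, was at 20.1, 17.1 and 37.3 FPKM in control libraries 1, 2 and 4, compared with 16.8, 19.1, 22.2 and 19.2 FPKM in the Foxl2LsL libraries 1 to 4. Control 4 alone was high, and the other 6 libraries mixed. The log2 fold change of Ptgs1 was -0.27 (95% interval -0.83 to 0.28; limma, adjusted p 0.395), and it was 0.05 without control 4.

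Ptgs2 (chromosome 1, 150100031 to 150108227, plus strand, GRCm38), the inducible form, whose loss is known to impair implantation and decidualization in mice, was at 9.26, 4.07 and 2.14 FPKM in control libraries 1, 2 and 4. The values were 2.10, 0.554, 0.526 and 1.83 FPKM in the Foxl2LsL libraries 1 to 4. Both groups were spread widely, 4.32-fold from lowest to highest among controls and 4-fold among Foxl2LsL libraries, and their edges met: 627 fragments of Ptgs2 in control 4 stood beside 615 in Foxl2LsL 1. The mean of 5.16 ± 3.68 FPKM in controls (SD, n = 3) fell to 1.25 ± 0.832 FPKM (SD, n = 4), which is 24.3% of the control mean. On the log2 scale the difference was -1.36 (SE 0.43; limma, adjusted p 0.0386). The call rests on few libraries: the adjusted p rose above 0.05 when control 1, control 2 or Foxl2LsL 2, 3 or 4 was left out (0.052 to 0.0962), and without control 1 the log2 fold change was -0.90.

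The order of Ptgs2 among controls was also the order of the epithelial markers. Their sum (Epcam, Cdh1, Krt8, Krt18, Krt19 and Cldn7) was 1211, 873 and 572 FPKM in controls 1, 2 and 4, and 1284, 927, 1211 and 1176 FPKM in the Foxl2LsL libraries 1 to 4. Of these 6 markers 1 was higher past the threshold (Krt18), beside 16.7% of all tested genes, and none was at 0. Within the Foxl2LsL group, libraries 1 and 4, with the most Ptgs2, had epithelial sums of 1284 and 1176 FPKM, and libraries 2 and 3, with the least, had 927 and 1211 FPKM. Gland markers did differ between the groups: Foxa2 and Cxcl15, the 2 tested of the 4 found, both fell, beside 23.9% of all tested genes. The sum of the list was 26.5 to 38.0 FPKM in controls and 4.67 to 6.98 FPKM in Foxl2LsL libraries, with Prss29 at 0 in control 1. The adipose marker sums ran in the reverse order of Ptgs2 within each group. They were 0.46, 9.38 and 97.4 FPKM in controls 1, 2 and 4, and 2.67, 127, 253 and 17.9 FPKM in Foxl2LsL libraries 1 to 4. Across the groups this order broke, as Foxl2LsL 1 had less of these markers than control 2 and also less Ptgs2. The parts of the epithelium, of the glands and of adipose tissue in the fall of Ptgs2 were not tested.

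Within a library the ratio of Ptgs2 to Ptgs1, both per length, was 0.459, 0.238 and 0.0574 in controls 1, 2 and 4. In Foxl2LsL libraries 1 to 4 it was 0.125, 0.0289, 0.0237 and 0.0954. Ptgs1 was the higher of the pair in every library, and the groups overlapped because control 4, with the most Ptgs1 and the least Ptgs2 of the controls, lay among the Foxl2LsL libraries.

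The genes whose levels followed Ptgs2 most closely over the 7 libraries were St6gal1 (Pearson's r 0.997), Sbk1 (0.996) and Pmaip1 (0.994), by the correlation of log2(FPKM + 1) among all tested genes. St6gal1, which encodes a sialyltransferase, was at 30.2, 19.7 and 15.2 FPKM in control libraries 1, 2 and 4, compared with 9.39 to 15.5 FPKM in Foxl2LsL libraries. Pmaip1, which encodes the BH3-only protein NOXA, was at 14.2, 7.21 and 4.54 FPKM and at 2.48 to 4.55 FPKM. As with Ptgs2, controls 1, 2 and 4 ran from high to low, and the lowest Foxl2LsL libraries were 2 and 3. This likeness follows from how the genes were chosen, and the values are a description.

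Of the 3 terminal synthases among the 10 genes, Ptges and Ptgis did not pass the threshold and Ptgds, at a low level, fell. Ptges (chromosome 2, 30889471 to 30929863, minus strand, GRCm38), the inducible PGE2 synthase, was at 2.41 to 3.92 FPKM in controls and 2.19 to 3.08 FPKM in Foxl2LsL libraries (log2 fold change -0.18, 95% interval -0.52 to 0.16; limma, adjusted p 0.355). Ptgis (chromosome 2, 167191805 to 167240604, minus strand, GRCm38), the prostacyclin synthase, was at 14.0 to 22.8 and 14.6 to 24.4 FPKM (0.11, 95% interval -0.37 to 0.59; adjusted p 0.686). For both genes the groups overlapped, and the intervals include changes in either direction. Prostacyclin synthase is known from blood vessels and muscle. Endothelial markers (Pecam1, Cdh5, Kdr, Tek and Emcn) summed to 95.2 to 132 FPKM in controls and 64.4 to 71.0 FPKM in Foxl2LsL libraries, with none at 0. Of the 5, 4 were lower past the threshold, beside 23.9% of all tested genes. The exception was Tek, with means of 7.04 FPKM in controls and 7.57 FPKM in Foxl2LsL libraries (limma, adjusted p 0.593).

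Ptgds (chromosome 2, 25466709 to 25470046, minus strand, GRCm38), the lipocalin-type PGD2 synthase, had the lowest level of the 10 genes. It was at 1.43, 1.53 and 1.99 FPKM in control libraries 1, 2 and 4, compared with 0.531, 0.546, 0.677 and 0.355 FPKM in the Foxl2LsL libraries 1 to 4. All controls lay above all Foxl2LsL libraries, and the mean of 1.65 ± 0.297 FPKM in controls (SD, n = 3) fell to 0.527 ± 0.132 FPKM (SD, n = 4). On the log2 scale the difference was -0.79 (SE 0.13; limma, adjusted p 0.0026). The values rest on 73 to 105 fragments in controls and 15 to 33 in Foxl2LsL libraries, and with a mean of 1.01 FPKM over the 7 libraries the gene passed the limit for testing through its controls.

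Among the receptors for PGE2, 1 gene rose and 1 fell. Ptger4 (chromosome 15, 5206661 to 5244187, minus strand, GRCm38) encodes EP4, a receptor that raises cyclic AMP. It was at 7.04, 7.89 and 13.9 FPKM in control libraries 1, 2 and 4, compared with 21.2, 18.4, 23.2 and 21.3 FPKM in the Foxl2LsL libraries 1 to 4. Control 4 was the highest control, and every Foxl2LsL library lay above it. The mean of 9.61 ± 3.74 FPKM in controls (SD, n = 3) rose 2.19-fold to 21.0 ± 1.95 FPKM (SD, n = 4), a difference on the log2 scale of 1.11 (SE 0.20; limma, adjusted p 0.00467). Ttc33, a gene on the opposite strand that shares 82 exon bases with Ptger4 in GENCODE M21, also rose, from 12.6 ± 0.610 to 17.1 ± 1.78 FPKM (limma, adjusted p 0.0111, and 0.0574 with the replicate block). A processed pseudogene, Gm15937, shares 1015 exon bases with Ptger4, and the use of strand is not given in the sources used here, so reads of these genes cannot be told apart where they overlap. The same limit holds for Ptgs1, Ptgis, Ptgfr and Ptger2, which share 144 to 329 exon bases with each overlapping gene of GENCODE.

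Ptger3 (chromosome 3, 157566892 to 157645888, plus strand, GRCm38) encodes EP3, which mainly lowers cyclic AMP and can contract uterine muscle. It was at 6.60, 5.60 and 11.5 FPKM in control libraries 1, 2 and 4, compared with 3.05, 3.20, 3.05 and 4.73 FPKM in the Foxl2LsL libraries 1 to 4. The lowest control lay above the highest Foxl2LsL library. The mean of 7.89 ± 3.15 FPKM in controls (SD, n = 3) fell to 3.51 ± 0.820 FPKM (SD, n = 4), a difference on the log2 scale of -0.94 (SE 0.23; limma, adjusted p 0.0146). It was -0.67 without control 4, the control with the most Ptger3, and leaving out each library in turn gave adjusted p of at most 0.0432 (limma). Ptger2 (chromosome 14, 44988195 to 45003820, plus strand, GRCm38) encodes EP2, which like EP4 raises cyclic AMP and acts in ovulation and fertilization. It was at 1.5 to 4.11 FPKM in controls and 2.16 to 4.53 FPKM in Foxl2LsL libraries, and its log2 fold change of 0.16 (95% interval -0.46 to 0.78; limma, adjusted p 0.666) turned to -0.10 without control 2.

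The balance of the 3 receptor genes within a library was read as shares of the summed FPKM of Ptger2, Ptger3 and Ptger4. Ptger4 made up 43.5%, 52.6% and 47.1% of the sum in controls 1, 2 and 4, and 80.3%, 75.6%, 75.4% and 73.9% in Foxl2LsL libraries 1 to 4. Ptger3 made up 40.8%, 37.4% and 38.9% in controls and 11.6%, 13.1%, 9.92% and 16.4% in Foxl2LsL libraries. Control 4, whose sum of 29.5 FPKM was like the 24.4 to 30.7 FPKM of the Foxl2LsL libraries and not like the 16.2 and 15.0 FPKM of the other controls, had the shares of a control. Ptger1, which is not among the 10 genes and is described below, was left out of these shares. With it in the sum, Ptger4 made up 21.3% to 31.7% in controls and 45.7% to 49.1% in Foxl2LsL libraries, Ptger3 made up 18.5% to 26.2% and 6.46% to 10.1%, and Ptger1 itself 32.7% to 51% and 34.9% to 40.6%. Ptger4 stood to Ptger3 as 1.23 ± 0.172 to 1 in controls (SD, n = 3), and the ratio reached 6.21 ± 1.36 in Foxl2LsL libraries (SD, n = 4). A ratio within a library does not depend on how libraries are scaled, and no test was made of it because its genes were chosen together.

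**Figure D2:**
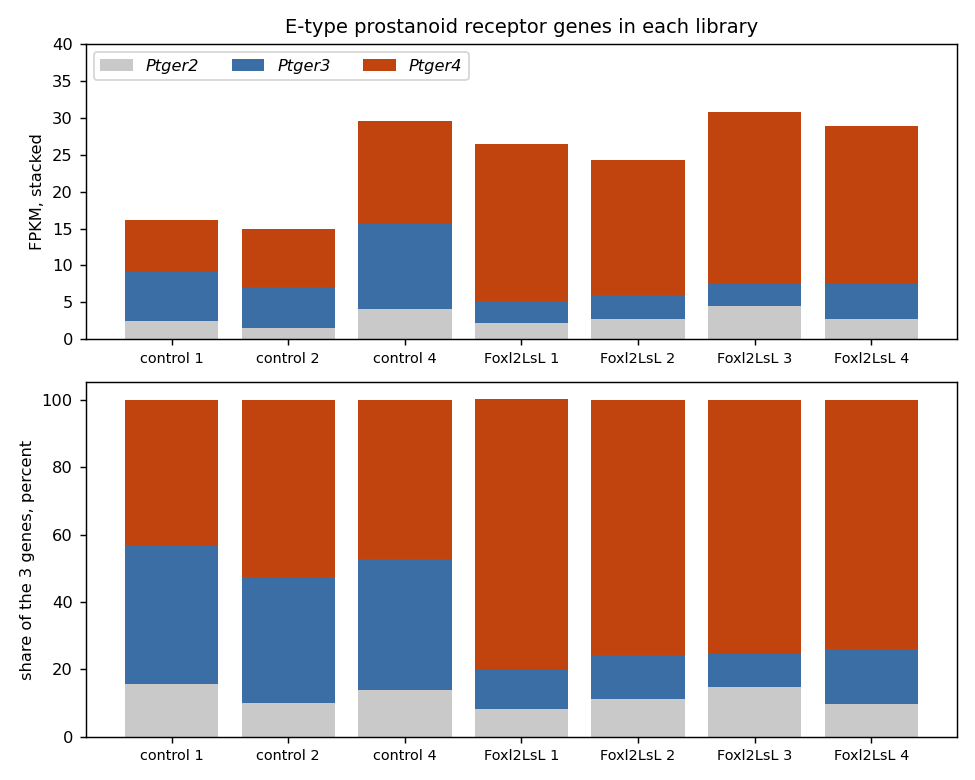
Ptger2, Ptger3 and Ptger4 in each of the 7 libraries, as stacked FPKM (upper panel) and as percent of their sum (lower panel). Ptger4 makes up 43.5% to 52.6% in controls and 73.9% to 80.3% in Foxl2LsL libraries, and control 4 has a sum like that of the Foxl2LsL libraries with the shares of a control.

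Among controls, smooth muscle markers were highest in control 4, as Ptger3 and Ptger4 were, but between the groups Ptger4 rose and Ptger3 fell. The sum of Acta2, Actg2, Myh11, Cnn1, Tagln and Des was 900, 827 and 1643 FPKM in controls 1, 2 and 4. It was 1913, 1468, 1642 and 1676 FPKM in Foxl2LsL libraries 1 to 4, in another order than the Ptger4 values. Of the 6, 2 (Myh11 and Tagln) rose past the threshold, beside 16.7% of all tested genes, and none was at 0. Leukocyte markers (Ptprc, Cd68, Csf1r, Adgre1 and Itgam) summed to 25.7 to 36.6 FPKM in controls and 39.5 to 77.1 FPKM in Foxl2LsL libraries. Of the 5, 2 (Csf1r and Itgam) were higher past the threshold, beside the same 16.7% of all tested genes, and none was at 0. Ptprc did not rise, with means of 3.65 FPKM in controls and 3.07 FPKM in Foxl2LsL libraries (limma, adjusted p 0.536). Itgam was uneven, at 12.2, 2.93, 4.21 and 18 FPKM in Foxl2LsL libraries 1 to 4. In Foxl2LsL libraries 1 to 4 the leukocyte sums were 63.1, 39.5, 43.3 and 77.1 FPKM, in another order than the Ptger4 values given above. The parts of muscle and of leukocytes in the changes of Ptger4 and Ptger3 were not tested.

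Ptgfr (chromosome 3, 151796502 to 151837630, minus strand, GRCm38), the PGF2-alpha receptor, which drives uterine contraction and, in the ovary, luteolysis and so the onset of labour, was at 1.25, 1.80 and 2.73 FPKM in control libraries 1, 2 and 4, compared with 2.56, 2.38, 3.33 and 2.86 FPKM in the Foxl2LsL libraries 1 to 4. Control 4 lay among the Foxl2LsL libraries and the other controls lay below them. The log2 fold change was 0.40 (95% interval -0.02 to 0.81; limma, adjusted p 0.111). Without control 4 it was 0.59 and the adjusted p was 0.0151.

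Breakdown was represented by Hpgd (chromosome 8, 56294585 to 56321043, plus strand, GRCm38), which had the highest level of the 10 genes in both groups. It was at 29.8, 37.2 and 26.8 FPKM in control libraries 1, 2 and 4, compared with 49.3, 48.0, 45.9 and 53.1 FPKM in the Foxl2LsL libraries 1 to 4. The groups lay apart, and the Foxl2LsL libraries were close to each other, with a coefficient of variation of 6.15%. The mean of 31.3 ± 5.38 FPKM in controls (SD, n = 3) rose 1.57-fold to 49.1 ± 3.02 FPKM (SD, n = 4). On the log2 scale the difference was 0.64 (SE 0.11; limma, adjusted p 0.004), and at least 3019 fragments of Hpgd were counted in each library.

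The ratio of Ptgs2 to Hpgd, which sets the inducible step of synthesis beside the first step of breakdown, was 0.310, 0.109 and 0.0800 in controls 1, 2 and 4. It was 0.0427, 0.0115, 0.0115 and 0.0345 in Foxl2LsL libraries 1 to 4, all below the lowest control. Ptgs2 was lower and Hpgd higher in every Foxl2LsL library than in any control, so this separation had to follow and adds no support. The ratio of Ptgs1 to Hpgd was 0.460 to 1.39 in controls and 0.342 to 0.485 in Foxl2LsL libraries, with Foxl2LsL 3 above control 2. These are ratios of transcripts, and neither enzyme activity nor prostaglandins were measured.

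The genes whose levels followed Hpgd most closely over the 7 libraries were Il17ra (Pearson's r 0.992), Uox (0.990) and Akr1c14 (0.989). Il17ra encodes a receptor for interleukin 17, Uox the urate oxidase, and Akr1c14 a hydroxysteroid dehydrogenase. Akr1c14 was at 17.6, 30.8 and 14.9 FPKM in control libraries 1, 2 and 4, compared with 46.8 to 54.3 FPKM in Foxl2LsL libraries. All 3 had control 2 as the highest control and control 4 as the lowest, as Hpgd had. This likeness follows from how the genes were chosen, and the values are a description.

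By level, the order of the 10 genes changed between the groups. In controls it ran from Hpgd (31.3 FPKM) over Ptgs1 (24.9), Ptgis (18.9), Ptger4 (9.61), Ptger3 (7.89), Ptgs2 (5.16), Ptges (3.22), Ptger2 (2.71) and Ptgfr (1.93) to Ptgds (1.65). In Foxl2LsL libraries it ran from Hpgd (49.1 FPKM) over Ptger4 (21.0), Ptgis (20.5), Ptgs1 (19.4), Ptger3 (3.51), Ptger2 (3.06), Ptgfr (2.78), Ptges (2.69) and Ptgs2 (1.25) to Ptgds (0.527). In Foxl2LsL libraries the ranges formed 4 blocks that did not overlap: Hpgd; Ptger4, Ptgis and Ptgs1; Ptger3, Ptger2, Ptgfr and Ptges; Ptgs2 and Ptgds. Within each block neighbours in the order overlapped. In controls neighbours overlapped except Ptgis and Ptger4, with the lowest Ptgis at 14.0 FPKM and the highest Ptger4 at 13.9 FPKM. The controls had a common trait: for 7 of the 10 genes control 4 was the highest of the 3, beside 33.4% of all tested genes, and it lay between 1.34 and 2.04 times the mean of controls 1 and 2 in these. The exceptions were Ptgs2, Ptgis and Hpgd.

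The rest of the pathway was read from 46 other genes listed by role, also with earlier results known. Of these genes 31 reached the limit for testing. Of the 31, 7 rose and 5 fell past the threshold, 38.7% beside the 40.6% of all tested genes, and the median log2 fold change of the 31 was 0.14. After quantile normalization or median centring 7 rose and 3 fell. The plot of fold changes with their intervals gives all tested genes of the pathway.

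**Figure D3:**
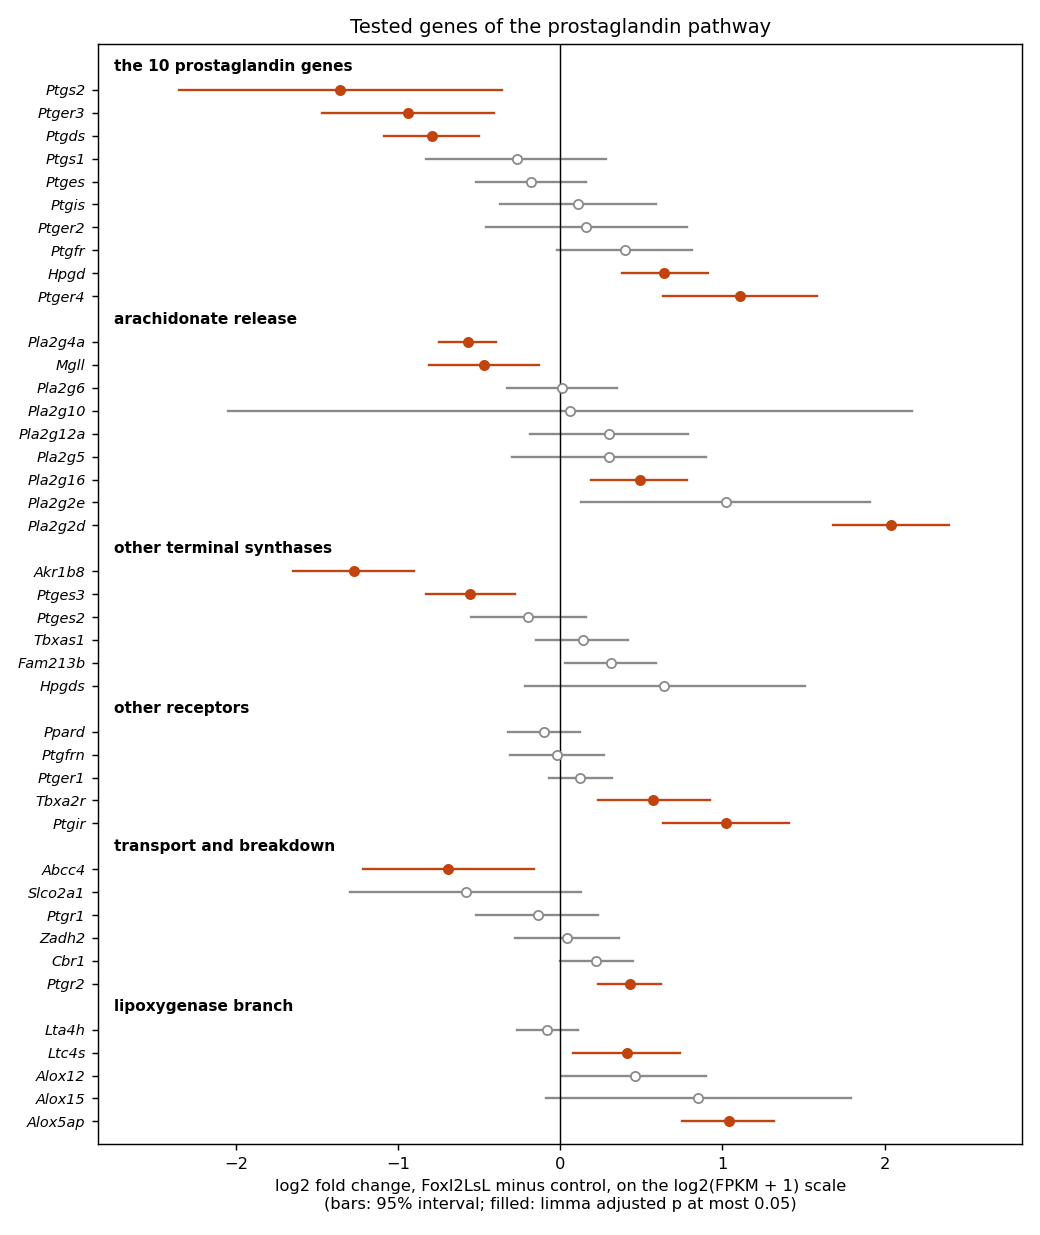
Log2 fold change, Foxl2LsL minus control, on the log2(FPKM + 1) scale (horizontal axis) for the 10 prostaglandin genes and the 31 other tested pathway genes, grouped by role; bars are 95% intervals and filled points passed an adjusted p of 0.05. Rises and falls both occur among the 10 genes, arachidonate release and transport, and the called values run from Ptgs2 at -1.36 to Pla2g2d at 2.04.

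Among 14 genes that release arachidonate or feed it in, 9 were tested, 2 rose and 2 fell. Pla2g4a, the cytosolic phospholipase that is the main source of arachidonate for prostaglandins in the mouse uterus, fell from 59.9, 50.5 and 55.4 FPKM in controls 1, 2 and 4 to 37.0, 35.0, 38.5 and 36.5 FPKM in the Foxl2LsL libraries 1 to 4. The groups lay far apart beside their spread, and the log2 fold change was -0.57 (SE 0.08; limma, adjusted p 0.00138). Mgll, which encodes monoacylglycerol lipase, fell from 11.8 ± 1.22 to 8.32 ± 1.65 FPKM (adjusted p 0.0355). Pla2g2d, a secreted phospholipase, rose from 0.327 ± 0.235 to 4.44 ± 0.653 FPKM (log2 fold change 2.04; adjusted p 0.000205). It passed the limit for testing through the Foxl2LsL libraries. Pla2g16 rose from 6.09 ± 1.23 to 8.89 ± 0.850 FPKM (adjusted p 0.0188). The call of Mgll was lost without control 1, control 2, Foxl2LsL 1 or 4 (adjusted p up to 0.103) and without a filter, with quantile normalization or with median centring (0.0503 to 0.0575). The call of Pla2g16 was lost without control 1, control 2 or Foxl2LsL 3 (up to 0.0642) and under the replicate block (0.0659). Pla2g10, another secreted phospholipase, was at 37.1 FPKM in control 4 and at 1.10 to 9.12 FPKM in the other 6 libraries. Its log2 fold change was 0.06 (adjusted p 0.966), and without control 4 it was 1.33 and passed (limma, adjusted p 0.0235).

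Of 8 other genes listed as terminal synthases, 6 were tested and 2 fell. Ptges3, the cytosolic PGE2 synthase that is also the p23 co-chaperone of steroid receptors, fell from 73.7 ± 9.11 to 49.8 ± 5.71 FPKM (log2 fold change -0.56; limma, adjusted p 0.00877). Akr1b8, an aldo-keto reductase whose part in prostaglandin synthesis was not tested, fell from 11.8 ± 3.04 to 4.23 ± 0.602 FPKM (-1.27; adjusted p 0.00115). Akr1b3, an aldo-keto reductase with PGF synthase activity, was listed at or near 0 in all libraries. Hpgds, the PGD2 synthase of blood cells, was at 4.01 ± 2.79 and 6.42 ± 2.44 FPKM and did not pass (adjusted p 0.199). Without control 2, the highest control at 7.21 FPKM, its log2 fold change went from 0.64 to 1.07 and passed (limma, adjusted p 0.0348). Mast cell markers (Cpa3, Cma1, Mcpt4 and Tpsb2), from a cell type that makes PGD2, summed to 3.86 to 8.33 FPKM in controls and 5.93 to 15.7 FPKM in Foxl2LsL libraries, with adjusted p from 0.114 to 0.603 (limma) and none at 0.

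Of 8 other receptors and related genes, 5 were tested and 2 rose. Ptgir, the prostacyclin receptor, rose from 0.383, 0.571 and 1.03 FPKM in controls 1, 2 and 4 to 1.87, 2.07, 2.61 and 2.84 FPKM in the Foxl2LsL libraries 1 to 4 (log2 fold change 1.02, SE 0.17; limma, adjusted p 0.00291). Its control mean lay below 1 FPKM, so it passed the limit for testing through the Foxl2LsL libraries. Tbxa2r, the thromboxane receptor, which contracts smooth muscle, rose from 1.5 ± 0.541 to 2.68 ± 0.306 FPKM (adjusted p 0.0188). In both genes control 4 was the control nearest to the Foxl2LsL libraries, as it was in the muscle marker sums given above, and the part of muscle in these rises was not tested. The call of Tbxa2r was lost in fits without control 1, control 2 or Foxl2LsL 4 (adjusted p up to 0.0686). Ptger1, the fourth receptor for PGE2, was at 15.5 ± 1.26 and 16.9 ± 1.2 FPKM (log2 fold change 0.12, 95% interval -0.07 to 0.32; adjusted p 0.267). Ptgfrn, a membrane protein that binds the PGF2-alpha receptor, was at 35.1 ± 5.90 and 34.4 ± 3.06 FPKM (adjusted p 0.912).

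Of 6 other genes of transport and breakdown, all were tested, 1 rose and 1 fell. Ptgr2, which encodes the reductase that acts after the Hpgd step, rose from 13.1, 14.8 and 15.9 FPKM in controls 1, 2 and 4 to 19.4, 19.0, 21.6 and 19.6 FPKM in the Foxl2LsL libraries 1 to 4 (log2 fold change 0.43, SE 0.08; limma, adjusted p 0.00646). Like Hpgd it lay higher in every Foxl2LsL library than in any control. Abcc4, an exporter of prostaglandins, fell from 11.1 ± 5.01 to 6.16 ± 0.350 FPKM (adjusted p 0.0441), a call lost without control 2 or any Foxl2LsL library (adjusted p up to 0.0976) and under 4 other alternatives (0.0639 to 0.118), and its log2 fold change of -0.69 was -0.37 without control 4. Slco2a1, the importer that carries prostaglandins to intracellular breakdown, was at 19.2, 11.8 and 5.94 FPKM in control libraries 1, 2 and 4, compared with 6.89 to 7.36 FPKM in Foxl2LsL libraries. Its controls spread on both sides of a narrow Foxl2LsL range, and it did not pass (log2 fold change -0.58; adjusted p 0.164). Without control 4 it passed (-0.99; limma, adjusted p 0.00371). Cbr1 and Zadh2, carbonyl and prostaglandin reductases, were at 36.1 ± 0.965 and 42.5 ± 4.87 FPKM and at 20.6 ± 4.80 and 20.8 ± 1.16 FPKM, and neither passed (adjusted p 0.101 and 0.849). Cbr1 passed without Foxl2LsL 4 (log2 fold change 0.30; adjusted p 0.0332) and with quantile normalization (0.27; adjusted p 0.048).

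In the lipoxygenase branch, which draws on the same arachidonate for leukotrienes and related lipids, 5 of 10 genes were tested and 2 rose. Alox5ap, the protein that presents arachidonate to 5-lipoxygenase, was at 19.2, 19.4 and 18.3 FPKM in control libraries 1, 2 and 4, compared with 48.2, 32.2, 40.1 and 40.8 FPKM in the Foxl2LsL libraries 1 to 4. The controls were nearly equal and lay well below every Foxl2LsL library, and the log2 fold change was 1.04 (SE 0.12; limma, adjusted p 0.000975). Alox5ap is made mainly by leukocytes, whose part in its rise was not tested. Their marker sums, and the values of Ptprc, which did not rise, are given above. Ltc4s, the leukotriene C4 synthase, rose from 1.06 ± 0.296 to 1.74 ± 0.314 FPKM with an adjusted p of 0.0499 (limma), a call lost under 12 of 15 alternatives (adjusted p up to 0.159). Alox15 was at 44.4 ± 24.1 and 73.5 ± 19.0 FPKM and Lta4h at 38.6 ± 3.75 and 36.5 ± 1.77 FPKM, and neither passed (adjusted p 0.128 and 0.491). The log2 fold change of Alox15, 0.85, was 1.23 and passed without control 1 (adjusted p 0.0434), and was 0.34 without control 4.

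**Figure D4:**
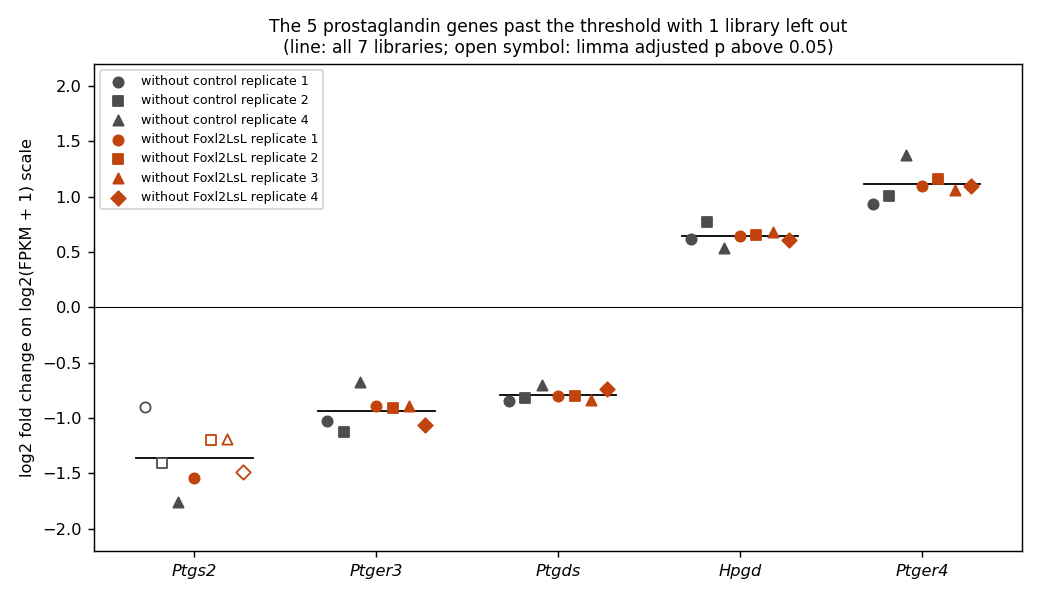
Log2 fold change on the log2(FPKM + 1) scale (vertical axis) of the 5 prostaglandin genes past the threshold when each of the 7 libraries was left out in turn; lines give the value with all libraries, and open symbols mark an adjusted p above 0.05. Ptgs2 ranges from -1.76 to -0.90 and loses its call in 5 of the 7 fits, while Ptger3, Ptgds, Hpgd and Ptger4 keep theirs in all 7.

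The plot of values with 1 library left out sets the 5 called genes side by side. Ptger4 ranged from 0.93 to 1.38, Hpgd from 0.54 to 0.77, Ptgds from -0.85 to -0.70 and Ptger3 from -1.13 to -0.67, each past the threshold in all 7 fits. The limit of 1 FPKM was set on all 7 libraries and not applied anew in these fits. Ptgds, with a mean of 1.01 FPKM, had passed it through its controls. Ptgs2 ranged from -1.76 to -0.90 and passed only without control 4 or Foxl2LsL 1. With control 2 left out, the library with 291 FPKM of Ovgp1, the log2 fold changes kept their direction in all 5 genes, and with control 4 left out 6 of the 10 genes passed, Ptgfr being the addition.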

How the data were processed

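RNA was extracted with TRIzol and sequenced on Illumina libraries, per the labels' protocols. The authors deposited FPKM for each library and, as another value, the length of each gene. The submitters' processing notes name STAR 2.5.2b, featureCounts 1.5.0-p1, DESeq2 1.12.4 and the build mm10, with no roles. Annotation, strandedness and filters are not given in the sources used here.

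Fragments per gene were recovered from FPKM and length, whose product came in whole steps (100% of 1647 to 1819 low values within 0.1, genes up to 1500 bases and 20 multiples). Counting error is the only error such numbers carry by themselves. The total fragments in the denominators were 47800000 to 67300000, and 74.4% to 77.5% of them lay on listed genes.

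Groups were taken from the genotype. Genes with a mean of at least 1 FPKM over the 7 libraries (13334, with 11630 below) were compared on log2(FPKM + 1) in R 4.3.3 by limma 3.58.1, with eBayes and its intensity trend, Benjamini-Hochberg adjusted over all tested genes, with a threshold of 0.05. Summaries and plots were made in Python 3.11.15 with pandas 2.3.3. The fit was run on simulated counts with the same dispersion for all genes, which checks the code and not the calls made here. The 10 genes and all lists were chosen with earlier results of these data known. Named were the 10 genes, Foxl2, listed pathway genes past the threshold or with a mean of at least 20 FPKM, and the 3 genes most correlated with Ptgs2 and with Hpgd. Pla2g10, Slco2a1, Hpgds, Akr1b3, Ptger1, Ttc33, Ovgp1, Pax8, Inha and Tek were chosen after their values were seen. The same holds for Ptprc, Itgam, Pdgfra, the orders of the adipose and muscle sums and, after their sequences were seen, the promoter motifs. Gene positions are those of GENCODE M21 (GRCm38, the same assembly as mm10), matched by symbol, and promoter sequences are those of RefSeq on GRCm38.p6.

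No block was used for the shared numbers 1, 2 and 4, since no label ties them to litters or animals. There were 16 alternatives: another pseudocount (0.1), no filter or a mean of at least 5 FPKM, 3 scalings, limma-voom on the recovered fragments, array weights (limma warned that convergence was not reached), the block, and leaving out each of the 7 libraries.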

Additional observations from a re-analysis of the deposited data

Results flagged for a closer look

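Ptger3 in Foxl2LsL 4 stood apart from the other libraries of its group, at 4.73 FPKM against 3.05 to 3.20 FPKM. Its gap to the nearest library was 0.911 of the range of the 4 libraries, above the 95% limit of Dixon's test. In all, 40 genes, ratios and shares were looked at in this way, and chance flags about 1 in 20, or 2 of them. Groups of 3, such as the controls, were not tested.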

How the results depend on the processing

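The count of prostaglandin genes past the threshold was 4 to 6 when each library was left out and 3 with a mean of at least 5 FPKM, which left 5 of the 10 genes to test. The count of all genes past the threshold was 3853 to 5328 when each library was left out. It was 3243 with a replicate block on the numbers 1, 2 and 4, against 3975 for the same 6 libraries without it, and 3196 of the 3243 were among the 5409. Under the block 4 of the 10 genes passed, and Ptgs2 (-1.19; adjusted p 0.0771) did not. Same-numbered libraries deviated from their group means with correlations of 0.228, -0.031 and -0.112, so the numbers are not taken to pair the samples. The count of the 31 other tested pathway genes was 8 to 16 when each library was left out.

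Foxl2 ranged from -0.10 to 0.28 when each library was left out and was -0.15 with array weights. Among the 10 genes, the sign turned for Ptgs1 (-0.49 to 0.05 when each library was left out, with 0.05 without control 4, and 0.04 with array weights), Ptgis (-0.07 to 0.26, with -0.07 without control 2) and Ptger2 (-0.10 to 0.42, with -0.10 without control 2, and -0.00042 under the block and without Foxl2LsL 3). Among the other genes it turned for Hpgds (-0.06 with array weights), Pla2g10 (-0.76 to 1.33 when each library was left out, below 0 without control 1, control 2, Foxl2LsL 2 or 3, and -0.06 under the block), Zadh2 (-0.10 to 0.21, with -0.10 without control 1) and Ptgfrn (-0.15 to 0.09, above 0 without control 1, control 2, Foxl2LsL 2 or 3, 0.03 with quantile normalization and median centring, and 0.02 under the block). The cause was not tested, and none of the values with a turned sign passed the threshold. Ptgs2 also lost its call without a filter on low values (adjusted p 0.0677). With array weights Ptgfr (0.47; adjusted p 0.0104), Alox15 (0.69; 0.0403) and Slco2a1 (-0.67; 0.0111) gained one, and under the block Hpgds did (0.57; 0.0344). With a pseudocount of 0.1 and with limma-voom, the log2 fold changes of genes with low values grew: to -1.49 and -1.64 for Ptgds, 1.76 and 1.92 for Ptgir, 3.6 and 4.18 for Pla2g2d, and 0.68 and 0.73 for Ltc4s. With limma-voom Tbxa2r was at 0.88, and with array weights Ptger3 was at -0.56 and Ltc4s at 0.66. Over their alternatives the adjusted p was 9.50e-05 to 0.0272 for Ptger4, 0.00237 to 0.0341 for Hpgd, 0.000562 to 0.0307 for Ptgds and 0.0132 to 0.0432 for Ptger3 (limma, Benjamini-Hochberg). Leaving out libraries changed the sign of 0 of the 8 ratios and shares, an alternative chosen after seeing the data, while some sizes moved by over 1.5 times. The difference of group means went from -0.183 to -0.0795 (without control 1) or -0.28 (without control 4) for Ptgs2 to Ptgs1, from -0.142 to -0.0697 (without control 1) for Ptgs2 to Hpgd, from -0.447 to -0.171 (without control 4) for Ptgs1 to Hpgd, from 7.39 FPKM to 4.77 (without control 2) or 12 (without control 4) for the receptor sum, and from -2.23 to between -3.83 and -1 percentage points for the share of Ptger2. The shares of Ptger3 and Ptger4 and their ratio stayed within 1.5 times. Depth limits Ptgds, with 15 fragments in its thinnest library.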
